A study of Homo sapiens with 4 samples.

Results

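The 10 genes described here encode the NF-κB transcription factor family and the inhibitor of κB (IκB) proteins that bind it. They were taken by gene symbol as a fixed family. No measured value entered the rule, but the family was chosen with earlier results of these data known. All 10 were found among the 50868 genes in the counts. Messenger RNA was sequenced in 4 libraries of A549, a human lung adenocarcinoma cell line. In the study, A549 cells carrying the empty vector (control, 2 libraries) were compared with A549 cells overexpressing the deubiquitinase USP12 (USP12, 2 libraries), to ask which genes respond to USP12. The study cloned tagged human USP12 into a pLVX lentiviral vector, and its promoter and any clonal selection of the cells are not given in the sources used here. No inflammatory stimulus is described in the labels, and nothing in the labels says that the replicates were separate cultures, so the spread between them may be technical.

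NF-κB works as dimers of 5 subunits. RELA (p65), REL (c-Rel) and RELB carry a transactivation domain, whereas NFKB1 and NFKB2 encode the precursors p105 and p100, which are processed to the DNA-binding subunits p50 and p52. In resting cells the dimers are held in the cytoplasm by IκB proteins. Phosphorylation of IκB by the IκB kinase (IKK) complex leads to its degradation and frees the dimers to enter the nucleus. RELA with p50 is the typical dimer of this canonical pathway, and RELB with p52 that of the slower, non-canonical pathway. Several of these genes are themselves transcribed in response to NF-κB, so their mRNA is often read as a record of pathway activity, although the activity itself depends on protein degradation and nuclear entry, which were not measured in these libraries.

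Promoter sequences are shown because the κB motif, the site NF-κB binds, is the feature by which family members can respond to NF-κB themselves. Sequences upstream of RefSeq start sites (GRCh38.p14) were matched by symbol for 8 of the 10 genes, all but RELB and NFKBIE. The 10-base κB consensus motif, searched on both strands in the 250 bases before each start, was found in 6 of these 8 genes, NFKB1, NFKB2, REL, NFKBIA, NFKBIB and NFKBIZ. It was in 8 of their 14 start sites, whereas 9.96% of the 35116 start sites of all genes and 11.8% of all 27305 genes held it. RELA and BCL3 had no match in this window. The counts do not show which start sites were in use, and a match describes only the letters. In the sequences below, read 5′ to 3′ on the strand of the gene, capitals mark the motif, and overlapping matches are drawn as 1 run. The first is the 250-base stretch before the second start of NFKB2 (chr10:102394328-102394577, plus strand). The others are windows around a motif for NFKB2 at the third start (chr10:102395664-102395704, plus strand), NFKB1 (chr4:102501290-102501339, plus strand), REL (chr2:60881507-60881557, plus strand), NFKBIA (chr14:35404801-35404850, minus strand), NFKBIB (chr19:38899921-38899968, plus strand) and NFKBIZ (chr3:101827747-101827796, plus strand).
NFKB2 start site 2: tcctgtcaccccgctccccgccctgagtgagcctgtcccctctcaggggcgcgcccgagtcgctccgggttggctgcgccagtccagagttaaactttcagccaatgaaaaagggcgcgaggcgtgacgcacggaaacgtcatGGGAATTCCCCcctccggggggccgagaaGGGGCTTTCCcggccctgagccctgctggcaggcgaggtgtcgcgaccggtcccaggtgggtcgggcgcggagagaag
NFKB2 start site 3: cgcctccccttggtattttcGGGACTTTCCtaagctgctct
NFKB1: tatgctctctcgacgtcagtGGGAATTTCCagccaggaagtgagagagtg
REL: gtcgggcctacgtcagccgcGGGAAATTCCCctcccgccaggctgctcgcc
NFKBIA: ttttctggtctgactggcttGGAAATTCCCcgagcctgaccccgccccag
NFKBIB: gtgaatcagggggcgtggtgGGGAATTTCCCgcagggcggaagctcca
NFKBIZ: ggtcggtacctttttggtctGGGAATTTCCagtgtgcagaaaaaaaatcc

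The libraries held between 14280081 and 16305356 counts. Expression is given as CPM, the counts of a gene scaled to library size with the trimmed mean of M values (TMM), and a level of 3 counts, between 0.166 and 0.227 CPM, was treated as the floor, which covers counting error only. USP12 itself measured 15.2 and 34.4 CPM with empty vector and 1740 and 2240 CPM after overexpression (log2 fold change 6.32, standard error 0.57, edgeR adjusted p = 0.0975). Across the 15222 genes tested, the log2 ratio of replicates had a standard deviation of 1.32 in control and 0.618 in USP12 cells. The heading of control replicate 1 also carries another date-like prefix than the other 3, which cannot be told apart from that culture. The 6 epithelial markers, keratins among them, were all expressed. They summed to 12900 and 7474 CPM with empty vector and 7316 and 6794 CPM with USP12. For 4 of the 6 both USP12 libraries were the lower ones, against 17% of all genes. What part this has in the values of the family was not tested. Of 11 markers of blood, endothelial and stromal cells, PTPRC, CD3E, VWF and DCN had at most 3 counts in each library. The others did not move in 1 direction. CD68 and CD79A (12 and 17 against 13 and 13 counts) overlapped between the groups, and LST1 had 6 and 1 against 0 and 2 counts. The endothelial genes CDH5 (10.3 and 5.32 against 0.144 and 0.346 CPM) and PECAM1 (5.15 and 3.10 against 0.288 and 0.970 CPM) were lower with USP12. Both endothelial genes passed the filter on low counts through the control libraries alone, so that their direction was given by the filter. The stromal genes COL1A1 (172 and 47 against 262 and 211 counts) and PDGFRB (0 and 0 against 6 and 11 counts) were higher with USP12. The 11 markers summed to 59.02 to 108.8 CPM in control and 65.25 to 84.15 CPM in USP12 libraries, most of it CD68 (79.0 and 46.8 against 63.4 and 47.5 CPM), and their part in the values of the family was not tested. In bulk RNA, fewer cells of a type and less RNA per cell cannot be told apart.

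All 10 genes passed the filter on low counts. The point estimate was lower in USP12 cells for 9 of them and higher for NFKB1 alone, with a median log2 fold change of -0.63, against -0.06 over all genes tested. By the quasi-likelihood test of edgeR, 0 of the 10 reached an adjusted p under 0.05 (range 0.567 to 0.99), and so did 0% of all genes. At an unadjusted p under 0.05 the test picked out 1 of the 10, NFKB2, where 7.59% of all genes passed. NFKB2 was also the only member to meet the study's limits for downregulated genes, p at or under 0.05 together with a log2 fold change at or under -1, applied here to the unadjusted p since the study does not say whether it was adjusted, which 4.41% of all genes met. No member met the mirrored criterion for higher genes, met by 2.92% of all genes. The edgeR exact test and the DESeq2 Wald test also called 0 of the 10 at an adjusted p under 0.05, while they called 2.82% and 2.75% of all genes. Both USP12 libraries lay below both control libraries in 3 members, NFKB2, RELB and NFKBIB, against 17% of all genes, and above them in 0 members, against 19.5% of all genes.

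**Figure D1:**
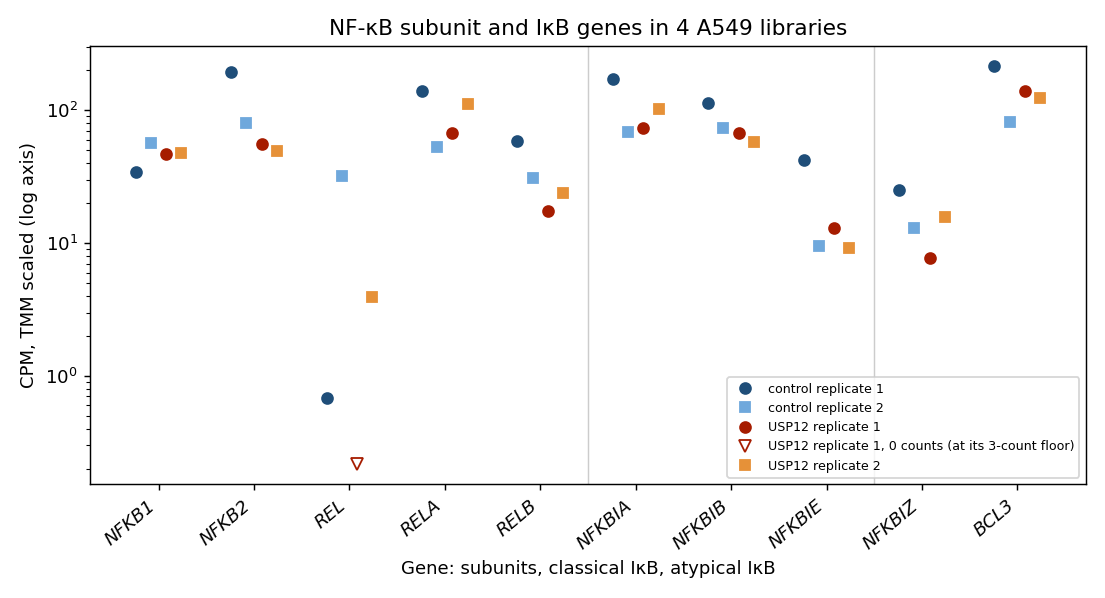
Each point is the CPM of a gene in 1 library, on a log axis, for the NF-κB subunits, the classical IκB genes and the atypical IκB genes. Control replicate 1 (dark blue circles) is the highest point in 8 of the 10 genes, and the open triangle marks the 0 counts of REL in USP12 replicate 1, drawn at the floor of 0.216 CPM.

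Among the subunits, the 2 of the non-canonical pathway were the ones whose groups did not overlap. NFKB2 (ENSG00000077150, chromosome 10 of GRCh38, 102394110 to 102402524, plus strand), the p100 precursor of p52, measured 194 and 80.4 CPM with empty vector and 55.8 and 49.4 CPM with USP12. The USP12 libraries lay close to each other and under both controls, and control replicate 1 stood well above control replicate 2. The log2 fold change of NFKB2 was -1.38 (standard error 0.50, 95% interval -2.61 to -0.15, n = 2 per group, edgeR adjusted p = 0.567). RELB (ENSG00000104856, chromosome 19, 45001461 to 45038192, plus strand), the transactivating partner of p52, measured 59.1 and 30.9 CPM with empty vector and 17.5 and 23.9 CPM with USP12. Its log2 fold change was -1.12 (standard error 0.49, 95% interval -2.32 to 0.08, edgeR adjusted p = 0.703). In both genes the gap between the control libraries, 1.27 for NFKB2 and 0.93 for RELB on the log2 scale, was nearly as large as the difference between the groups. Against control replicate 2 alone, the difference shrank to -0.61 for NFKB2 and -0.59 for RELB.

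The canonical subunits did not separate the groups. RELA (ENSG00000173039, chromosome 11, 65653599 to 65663090, minus strand), the p65 subunit, measured 140 and 52.7 CPM with empty vector and 67.8 and 112 CPM with USP12. The USP12 values lay inside the range of the controls, and the log2 fold change was -0.10 (standard error 0.56, 95% interval -1.47 to 1.26). NFKB1 (ENSG00000109320, chromosome 4, 102501330 to 102617302, plus strand), the p105 precursor of p50, measured 34.5 and 56.5 CPM with empty vector and 46.5 and 48.0 CPM with USP12. Its log2 fold change was 0.05 (standard error 0.42, 95% interval -0.96 to 1.07), and it was 1 of 2 members with the lower control value in replicate 1. The interval of RELA still holds a difference of 1 on the log2 scale in either direction, and that of NFKB1 one upwards.

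REL (ENSG00000162924, chromosome 2, 60881491 to 60931612, plus strand), which encodes c-Rel, varied more within the groups than between them. It had 9 and 577 counts with empty vector and 0 and 57 with USP12, or 0.681 and 32.0 CPM against 0 and 3.95 CPM. The 0 counts allow a level of up to 0.216 CPM. REL shares its strand with the overlapping ENSG00000267520 and RNU4-51P, and whether its fragments were assigned alike in all libraries cannot be seen from the counts. The fitted log2 fold change was -3.04 (standard error 2.00, 95% interval -7.92 to 1.83, edgeR adjusted p = 0.869). It rests largely on 1 library in each group, those with 577 and 57 counts. The gap of REL between control replicates was 5.30 on the log2 scale, and 16 of the 15222 genes (0.105%) had a gap at least as wide. Its gap between the USP12 replicates was 4.93, and 10 genes (0.0657%) had one at least as wide. REL itself is counted in both. The adjusted p of REL passed 0.05 in the fit with no filter on low counts (adjusted p = 0.00139 from edgeR), in which the prior degrees of freedom were infinite, so that each gene took the spread of the common trend. Without control replicate 2 the log2 fold change of REL was 1.55, and without USP12 replicate 2 it was -10.97. The latter value depends on the prior count, since the remaining USP12 library had 0 counts.

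The classical IκB genes encode the cytoplasmic inhibitors. NFKBIA (ENSG00000100906, chromosome 14, 35401079 to 35404749, minus strand) encodes IκBα, which is rapidly resynthesised after NF-κB activation. It measured 173 and 68.7 CPM with empty vector and 73.4 and 102 CPM with USP12, so that control replicate 2 was the lowest of the 4, and the log2 fold change of -0.46 had a 95% interval from -1.74 to 0.81. NFKBIB (ENSG00000104825, chromosome 19, 38899700 to 38908893, plus strand), IκBβ, measured 114 and 73.1 CPM with empty vector and 67.4 and 57.9 CPM with USP12. Both USP12 values of NFKBIB were below both controls by a narrow margin, with a log2 fold change of -0.57 (standard error 0.40, 95% interval -1.54 to 0.39, edgeR adjusted p = 0.879). NFKBIE (ENSG00000146232, chromosome 6, 44258166 to 44265788, minus strand), IκBε, measured 42.3 and 9.53 CPM with empty vector and 13.0 and 9.14 CPM with USP12. Control replicate 1 alone stood out for NFKBIE, and its log2 fold change of -1.22 (standard error 0.75, edgeR adjusted p = 0.851) became 0.19 against control replicate 2 alone.

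The atypical IκB proteins act in the nucleus as cofactors of p50 and p52 dimers. BCL3 (ENSG00000069399, chromosome 19, 44747705 to 44760044, plus strand) measured 216 and 82.2 CPM with empty vector and 139 and 123 CPM with USP12. NFKBIZ (ENSG00000144802, chromosome 3, 101827991 to 101861022, plus strand), which encodes IκBζ, measured 25.1 and 12.9 CPM with empty vector and 7.77 and 15.7 CPM with USP12. The groups overlapped in both genes. Their log2 fold changes were -0.18 (standard error 0.51, 95% interval -1.43 to 1.07) for BCL3 and -0.69 (standard error 0.58, 95% interval -2.11 to 0.73) for NFKBIZ. NFKBIZ shares its strand with the overlapping NXPE3, so some of its fragments may belong to that gene. NFKBIB lies opposite SIRT2. The same may hold there, since no source says whether strand was used when counting.

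**Figure D2:**
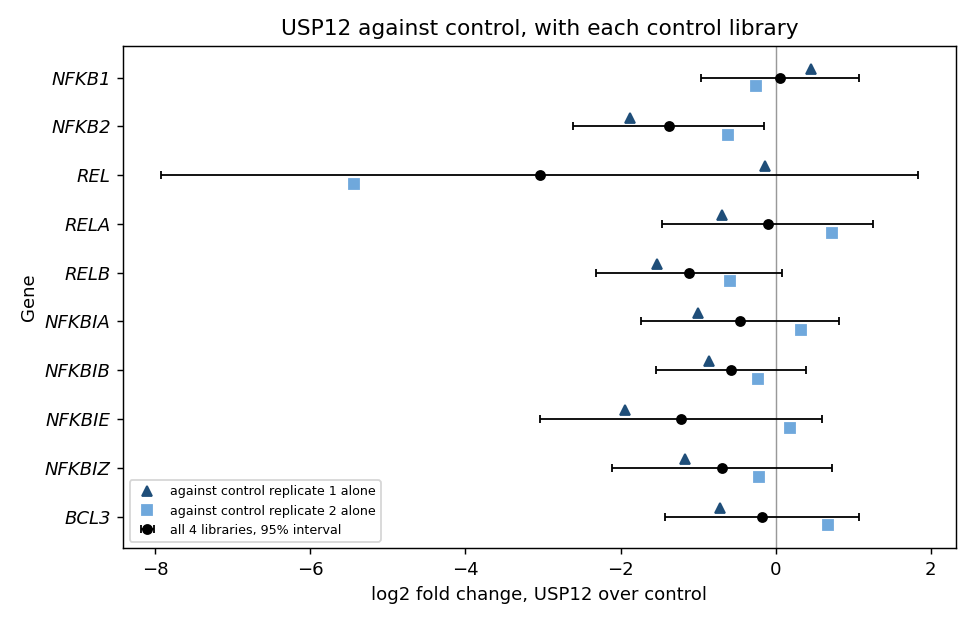
Black points give the log2 fold change of USP12 over control for each gene from all 4 libraries, with 95% intervals as bars, and coloured symbols give the mean of the USP12 libraries minus each control library alone. Only the interval of NFKB2 (-2.61 to -0.15) leaves out 0, and the 2 controls give opposite signs for NFKB1, RELA, NFKBIA, NFKBIE and BCL3.

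Most of these values moved with the control library used. Control replicate 1 was above control replicate 2 in 8 of the 10 genes, all but NFKB1 and REL, with a median difference of 1.11 over the 10 genes, against -0.01 over all genes tested. The median of the members was -0.93 against control replicate 1 and -0.22 against control replicate 2. Fitted without control replicate 2, 6 of the 10 reached an edgeR adjusted p under 0.05, all lower in USP12 cells (NFKB2, RELB, NFKBIA, NFKBIB, NFKBIE and BCL3), where 32.2% of all genes were called in that fit. Fitted without control replicate 1, none did (0 of 10, against 10.5% of all genes), and the point estimates of RELA, NFKBIA, NFKBIE and BCL3 were above 0. In both fits the lone control library was assumed to vary like the other group. NFKB2, RELB, NFKBIB and NFKBIZ were lower in both.

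The difference between the control libraries moved with GC content. When the genes were split into 5 equal groups by the GC content of their canonical transcript, the median log2 difference between control replicates 1 and 2 went from -0.98 in the group of lowest GC content to 1.01 in the highest, while that between USP12 replicates stayed between -0.08 and 0.10. REL, at 38.4% GC, lies in the lowest group, and 6 members, NFKB2, RELA, RELB, NFKBIB, NFKBIE and BCL3 (58.6% to 66.4% GC), lie in the highest. After a per-library adjustment for GC content, the median difference between the control libraries over the members was 0.27. The gap then was 0.32 for NFKB2, -0.18 for RELB and 0.21 for BCL3, but still 1.02 for NFKBIA, 1.23 for NFKBIE and 1.33 for NFKBIZ, and -4.33 for REL.

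**Figure D3:**
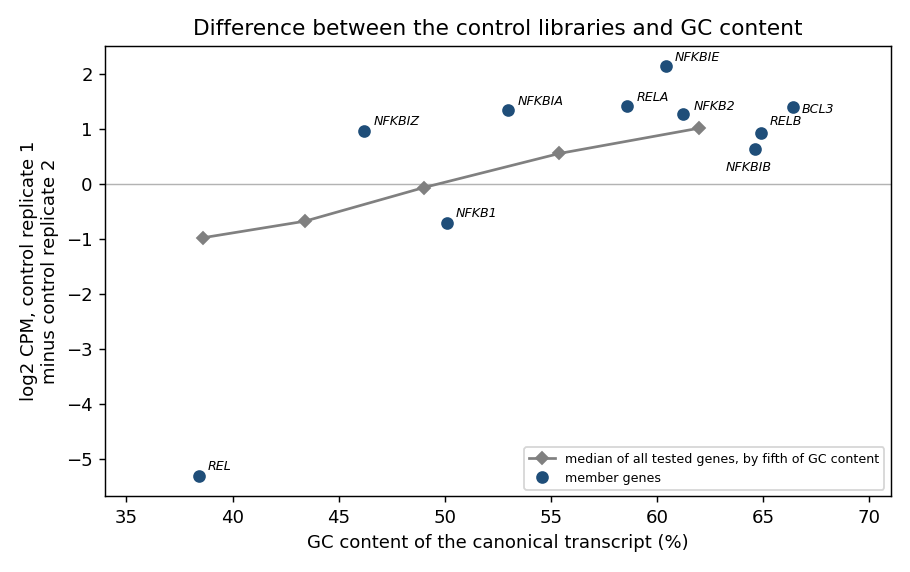
The vertical axis is log2 CPM of control replicate 1 minus control replicate 2 and the horizontal axis the GC content of the canonical transcript in percent; grey diamonds are medians of all tested genes in 5 equal groups by GC content and blue points are the 10 genes. The medians run from -0.98 to 1.01, and REL lies far below them at -5.30.

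With the GC content offset in the fit, NFKB2 had a log2 fold change of -0.99 (standard error 0.26, edgeR adjusted p = 0.245) and RELB of -0.73 (standard error 0.31, edgeR adjusted p = 0.485). NFKB2 then missed the fold criterion narrowly, although its unadjusted p in the edgeR fit was 0.00958. On the adjusted scale, the USP12 libraries lay under both controls in 2 members, NFKB2 and RELB, against 21.6% of all genes. NFKBIB no longer separated the groups and had a log2 fold change of -0.26. RELA (0.24) and BCL3 (0.29) had point estimates above 0, with standard errors of 0.38 and 0.24. NFKBIZ moved the other way, from -0.69 to -0.98 (standard error 0.58).

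Levels of different genes were compared as CPM per kilobase of the canonical transcript. BCL3, NFKBIA and NFKBIB held the first 3 places in each of the 4 libraries, with means of 79.4, 77.6 and 78.3 CPM per kb in control cells and 70.0, 56.3 and 52.6 in USP12 cells. Their order changed between libraries, so these 3 were not separable. RELA and NFKB2 held places 4 and 5 in every library, with NFKB2 ahead of RELA in both control libraries (64.2 against 55.8, and 26.7 against 20.9 CPM per kb) and RELA ahead in both USP12 libraries (26.9 against 18.5, and 44.6 against 16.4 CPM per kb). REL was the lowest of the 10 in each library, at no more than 2.88 CPM per kb.

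The make-up of the subunit mRNA followed from these levels. RELA made 36.0% and 26.8% of the summed CPM per kb of the 5 subunits with empty vector and 41.7% and 53.2% with USP12. The share of NFKB2 was 41.5% and 34.1% in control and 28.6% and 19.6% in USP12 libraries, and that of RELB 16.9% and 17.5% against 12.0% and 12.6%. For these 3 shares, the groups did not overlap. They are parts of 1 sum and so not independent: lower shares of NFKB2 and RELB raise that of RELA, whose own CPM overlapped between the groups. The shares were not adjusted for GC content. The ratio of RELB to RELA was 0.469 and 0.653 with empty vector and 0.288 and 0.237 with USP12. The summed level of the 3 classical IκB genes over that of the 5 subunits was 1.45 and 1.40 in control and 1.69 and 1.41 in USP12 libraries, so the groups overlapped. An exact permutation test of 1 such share cannot reach p = 0.05 with 2 libraries per group, and these shares are a description without a test.

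**Figure D4:**
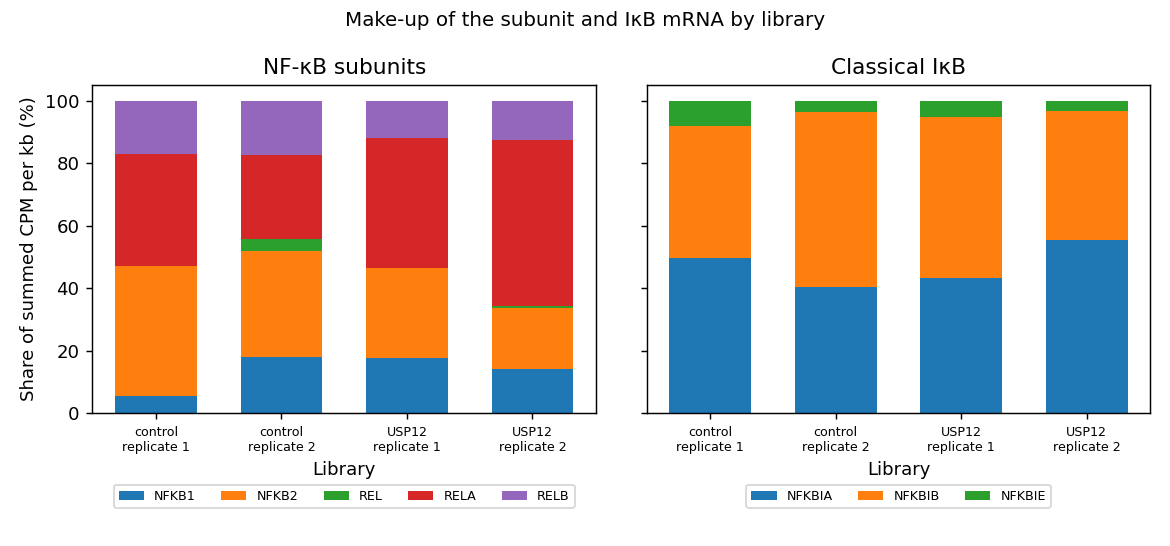
Bars show the share, in percent of summed CPM per kb, of each subunit gene (left) and each classical IκB gene (right) in each library. RELA makes up 36.0% and 26.8% of the subunit bar in control libraries and 41.7% and 53.2% in USP12 libraries, and the IκB bars overlap between the groups.

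The genes that control NF-κB upstream, 30 kinases, adaptors, ubiquitin ligases and inhibitors including the IKK complex, were all tested. Of these, 18 had a lower and 12 a higher point estimate, with a median log2 fold change of -0.13. An edgeR adjusted p under 0.05 was reached by 0 of 30 (0% of all genes), and 2 had an unadjusted p under 0.05, both lower, a share near the 7.59% of all genes. The lowest p values belonged to BIRC3, an apoptosis inhibitor and ubiquitin ligase of the pathway (log2 fold change -2.06, standard error 0.44, edgeR adjusted p = 0.274), TNIP1, a partner of the inhibitor A20 (-1.33, standard error 0.54), and RBCK1, of the linear ubiquitin ligase complex (-0.88, standard error 0.36). BIRC3 measured 50.5 and 37.5 CPM with empty vector and 10 and 11.1 CPM with USP12, a gap wider than that between the controls. PPM1B is the phosphatase that the study places between USP12 and IKK. Its mRNA measured 22.7 and 53.8 CPM with empty vector and 34.8 and 38.5 CPM with USP12, with a log2 fold change of -0.06 (standard error 0.52). The study proposes that USP12 removes ubiquitin from the PPM1B protein and so stabilizes it. In other cells it reports less polyubiquitin on PPM1B with USP12, but not with a catalytically inactive mutant. It also reports less PPM1B and IκB protein after USP12 knockdown. Protein was not measured in these libraries.

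A list of 29 genes known to respond to NF-κB, chosen with results on some of them known, was set beside the family. It includes CXCL8, CXCL1, CXCL2, CCL2 and CCL5, which the study itself reported as lowered by USP12 in its RNA-seq. Of the 29, 23 were tested and 22 had a lower point estimate, but 5 of these, CCL20, CCL5, LTB, SAA1 and SAA2, passed the filter on low counts through the control libraries alone, so that their direction was given by the filter, and 1 passed through the USP12 libraries alone. Of the other 17, all 17 had a lower point estimate, with a median log2 fold change of -1.68. The USP12 libraries lay under both controls in 11 of the 17, where 17% of all genes did, and 8 of the 17 had an unadjusted p under 0.05, where 7.59% of all genes did. An edgeR adjusted p under 0.05 was reached by 0 of the 23. These counts are a description, and part of them was known before the list was made. LCN2, an iron-binding secreted protein, measured 1470 and 225 CPM with empty vector and 12.2 and 9 CPM with USP12. CXCL3 (62.7 and 27.4 against 4.82 and 4.09 CPM) and CCL5 (51.3 and 8.70 against 0.504 and 0.623 CPM), both chemokines, were the next by p. Over the 23 genes the control libraries differed by a median of 2.23, again with control replicate 1 higher. The median log2 fold change of the 23 was -1.62 against control replicate 2 alone. Both medians include the 5 genes, and the 1, that passed the filter through 1 group alone. Neither was taken over the other 17 by themselves. In contrast, 11 interferon-stimulated genes differed between the controls by a median of -3.75, with control replicate 2 higher. They are the tested part of a list of 12, chosen with earlier results of these data known. Of the 11, 2 (IFI44L and OAS2) passed the filter through the control libraries alone, so that their direction was given by the filter. The other 9 all had a lower point estimate with USP12. Of these 9, 6 lay under both controls, where 17% of all genes did. An unadjusted edgeR p under 0.05 was found for 8 of the 9, where 7.59% of all genes had one. Because of how the list was chosen, these counts too are only a description. Over all 11, the 2 included, the median log2 fold change was -0.95 against control replicate 1 alone and -4.37 against control replicate 2 alone. The part of this difference in the values of the family was not tested.

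For likeness of pattern, each member was compared with the other members and the upstream genes by the root mean square distance of log2 CPM after centring each gene over the 4 libraries, over 39 candidates. The closest pairs were NFKBIE with NFKBID (distance 0.07), which encodes the related IκBNS, NFKB1 with OTULIN (0.08), BCL3 with TRAF1 (0.11) and NFKB2 with IKBKE (0.15). These values were not adjusted for GC content, with which the difference between the control libraries moved. In each pair that difference was nearly the same, such as 2.13 and 2.03 on the log2 scale for NFKBIE and NFKBID. Whether the paired genes are regulated alike was not tested. IKBKE measured 45.7 and 20.1 CPM with empty vector and 17.3 and 13.2 CPM with USP12, and NFKBID 17.6 and 4.21 against 6.19 and 3.95 CPM. REL had no close match, with a distance of 2.36 to the nearest, CYLD.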

How the data were processed

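Processed files of 4 libraries of A549 cells were used. The authors prepared stranded mRNA libraries, trimmed adaptors and removed rRNA reads with Seqtk, mapped reads to GRCh38 with Hisat2 (version 2.0.4), and deposited raw counts, that is, per-gene totals of fragments with a unique alignment, from Stringtie (version 1.3.0), without normalization. Which annotation release was used, and whether strand was, is not given in the sources used here. Groups came from the sample titles.

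Counts were tested in R (version 4.3.3) with edgeR (version 4.0.16; filterByExpr, TMM scaling, quasi-likelihood test without a block, Benjamini-Hochberg adjustment over 15222 genes). Standard errors are the fold change over the square root of F, and 95% intervals use the moderated degrees of freedom (prior 4.15). Log2 CPM used a prior count of 2. Gene positions, and the length and GC content of the Ensembl canonical transcript, came from GENCODE release 44 (99.2% of tested genes). The GC offset was a lowess curve (span 0.3) per library. DESeq2 (version 1.42.0) was an alternative. The 10 members were named in full. Of the pathway lists, the 3 genes with the smallest p were named, with PPM1B, USP12 and the 4 closest patterns. Other genes were named after their values were seen, and list counts without genes that passed the filter through 1 group only were added after seeing the data. Members and lists were chosen with earlier results of these data known.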

Additional observations from a re-analysis of the deposited data

How the results depend on the processing

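The number of members with an adjusted p under 0.05 was 0 with edgeR's quasi-likelihood test (1 at an unadjusted p under 0.05), with the exact test, with the size factors or the Wald test of DESeq2, at a minimum of 10 counts in every library, and with the GC content offset, alone or joined to the replicate block. It was 1, REL, with no filter on low counts (2.13% of all genes called) and with the replicate block (2.65%, edgeR adjusted p = 0.00589 for REL), and from 0 to 6 when 1 library was left out (6 without control replicate 2, 1, REL, without USP12 replicate 2). By the limits of the study applied to the unadjusted p, NFKB2 alone (1 member) became 4 members with no filter (with REL, RELB and NFKBIE), 2 with the DESeq2 Wald test and the exact test (with RELB), 2 with the replicate block (with REL), 0 with the GC content offset, 1 with block and offset together (REL, while NFKB2 was at -0.98), and from 0 to 4 when 1 library was left out (0 without USP12 replicate 1, 4 without control replicate 2, and REL alone without control replicate 1 or USP12 replicate 2). The median log2 fold change of the members, -0.63, was below 0 in all 12 alternatives. It lay from -0.66 to -0.48 with all 4 libraries and from -0.89 to -0.17 when 1 was left out, the smallest without control replicate 1.

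Some point estimates changed sign, not only those near 0 but also REL (-3.04 in the main fit) and NFKBIE (-1.22 in the main fit). With the replicate block, RELA was 0.02. With the GC content offset, NFKB1 was -0.05, RELA 0.24 and BCL3 0.29. With block and offset together, NFKB1 was 0.00, RELA 0.23 and BCL3 0.29. Leaving out 1 library gave from -0.26 to 0.48 for NFKB1, -10.97 to 1.55 for REL, -0.61 to 0.77 for RELA, -0.95 to 0.35 for NFKBIA, -1.90 to 0.22 for NFKBIE and -0.69 to 0.68 for BCL3. NFKB2, RELB, NFKBIB and NFKBIZ kept their direction in all 12 alternatives. REL had too few counts to be tested with at least 10 counts in every library. The cause of these changes was not tested. The replicate numbers are shared by the groups, but deviations of same-numbered libraries correlated only weakly across genes (0.152), and no source says that a number marks a pair. At these depths counting error is small for every member but REL.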

Other observations

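Of the 29 genes known to respond to NF-κB, 6 had too few counts to be tested. Among these, TNF, a cytokine that activates the canonical pathway, had 30 and 7 counts with empty vector and 0 in each USP12 library, and IL1A had 16 and 0 counts against 0 and 0. CXCL10 had 0 counts in all 4 libraries. Among the tested genes, CCL20 (105 and 18 counts), SAA1 (273 and 24 counts) and SAA2 (106 and 15 counts) also had 0 counts in both USP12 libraries, and no fold is given for them. IL1B had 71 and 0 counts with empty vector and 0 and 13 with USP12, a spread within groups like that of REL. These genes were chosen after their values were seen.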
